A study of Mus musculus with 6 samples.

Results

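Ephrins, Eph receptors, Slits, Robos and Flrt proteins form a set of contact and guidance cues of the developing cortex, and 32 of their genes were among the 21937 gene symbols of the comparison examined here. Members were taken by symbol alone: 5 ephrin-A and 3 ephrin-B ligands, 9 EphA and 5 EphB receptors, 3 Slit ligands, 4 Robo receptors and 3 Flrt genes. This gave 11 ligands and 18 receptors, with the Flrt genes kept apart because they act in both roles. Plasmids were electroporated into neuronal progenitors of mouse embryos in the uterus at embryonic day 14.5, coding for an shRNA against Nat14 (shNat14, 3 libraries) or a control shRNA (NTC, 3 libraries). Both groups were taken at embryonic day 18.5, when the cortex was dissected and live GFP-positive cells were sorted for RNA sequencing, so the libraries represent GFP-positive cells rather than whole cortex. The mouse strain, the promoter of the plasmids and any pooling of embryos are not stated in the labels. Whether the libraries within each group are from different embryos is not said either, so a p-value here reflects how much these libraries vary, and that variation may be technical.

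Eph receptors are receptor tyrosine kinases that bind ephrins on neighbouring cells. Ephrin-A ligands are held in the membrane by a lipid anchor and mainly bind EphA receptors, whereas ephrin-B ligands span the membrane and mainly bind EphB receptors, and signals pass into both the receptor cell and the ligand cell. Slits are secreted glycoproteins that repel axons and migrating neurons through Robo receptors. Flrt proteins span the membrane and bind latrophilins as adhesion partners and Unc5 receptors as repellent partners. In the embryonic cortex these systems are known for steering neuronal migration, for the lateral spread of neurons and for axon paths.

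The file used was the authors' own comparison, giving for each gene a mean level as log2 CPM (counts scaled to library size, not to gene length), a log2 fold change, a p-value and an adjusted p-value, and no values per library. Levels in each library, their SD and the depth are therefore unknown. The column names do not state the direction. It was read from Nat14, the target of the shRNA, which stood at -3.31 on the log2 scale per the authors' deposited table (adjusted p = 1.2e-08), so that positive values mean a higher level in shNat14. This gene is for that reason no independent check of the labels. Where a member's mean level was at or above the median of all rows (log2 CPM of 1.71), an approximate 95% interval was computed from the fold change and its p-value. Of the 32 members 23 had such a level and 9 lay below it, and all 32 lay above the lowest mean level, at which 4537 rows of the table sit.

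None of the 32 members was called at a threshold of 0.05 on the adjusted p per the authors' deposited table, where 34 genes, 0.155% of all rows, were called. Before adjustment 2 members had p under 0.05, the receptor gene Epha7 and Flrt3, both with positive fold changes. That is 6.25% of the members, against 5.04% of all rows and 6.35% of the rows above the lowest mean level, so the share of members was near the background. The 2 were both positive, against a background of 2.79% of all rows for positive and 2.25% for negative fold changes at this p. Fold changes were positive for 19 members and negative for 13, with a median of 0.17 on the log2 scale, beside a median of 0.00 and 50.3% positive among the 17400 rows above the lowest mean level. Among the 23 members at or above the median level 15 were positive, with a median log2 fold change of 0.24, beside 53.6% positive and a median of 0.03 over all 10969 such rows.

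The 250 bases before the annotated start of Epha7 and Flrt3 are printed as sequence context of the 2 members with the smallest p-values. They are taken from RefSeq on GRCm38.p6 and capitals mark CG dinucleotides. RefSeq lists 2 overlapping start windows for Epha7, of which 1 is printed. That window is chr4:28812881-28813130 on the plus strand and the Flrt3 window is chr2:140671477-140671726 on the minus strand.
Epha7: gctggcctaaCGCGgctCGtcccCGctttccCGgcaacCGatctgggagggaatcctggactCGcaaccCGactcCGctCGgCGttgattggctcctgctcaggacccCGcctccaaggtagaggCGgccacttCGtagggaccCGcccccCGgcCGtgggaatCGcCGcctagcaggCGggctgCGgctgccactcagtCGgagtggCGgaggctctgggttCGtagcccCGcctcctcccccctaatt
Flrt3: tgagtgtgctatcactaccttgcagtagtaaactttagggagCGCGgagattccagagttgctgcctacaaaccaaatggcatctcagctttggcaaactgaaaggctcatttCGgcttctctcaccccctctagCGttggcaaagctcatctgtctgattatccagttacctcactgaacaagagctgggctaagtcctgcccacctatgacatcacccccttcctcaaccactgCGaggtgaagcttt

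The windows are unlike in base composition. The printed Epha7 window holds 25 CG dinucleotides at 69.2% G and C (23 at 66.8% in the other), and the Flrt3 window holds 5 at 50.0%. Over all 32851 windows of this length the median was 6 CG dinucleotides. At least 25 were found in 10.7% of those windows and at least 5 in 55.6%. The 34 windows of 29 members had a median of 16. No binding or methylation was measured in this series, so these letters describe the genes and not their control.

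**Figure D1:**
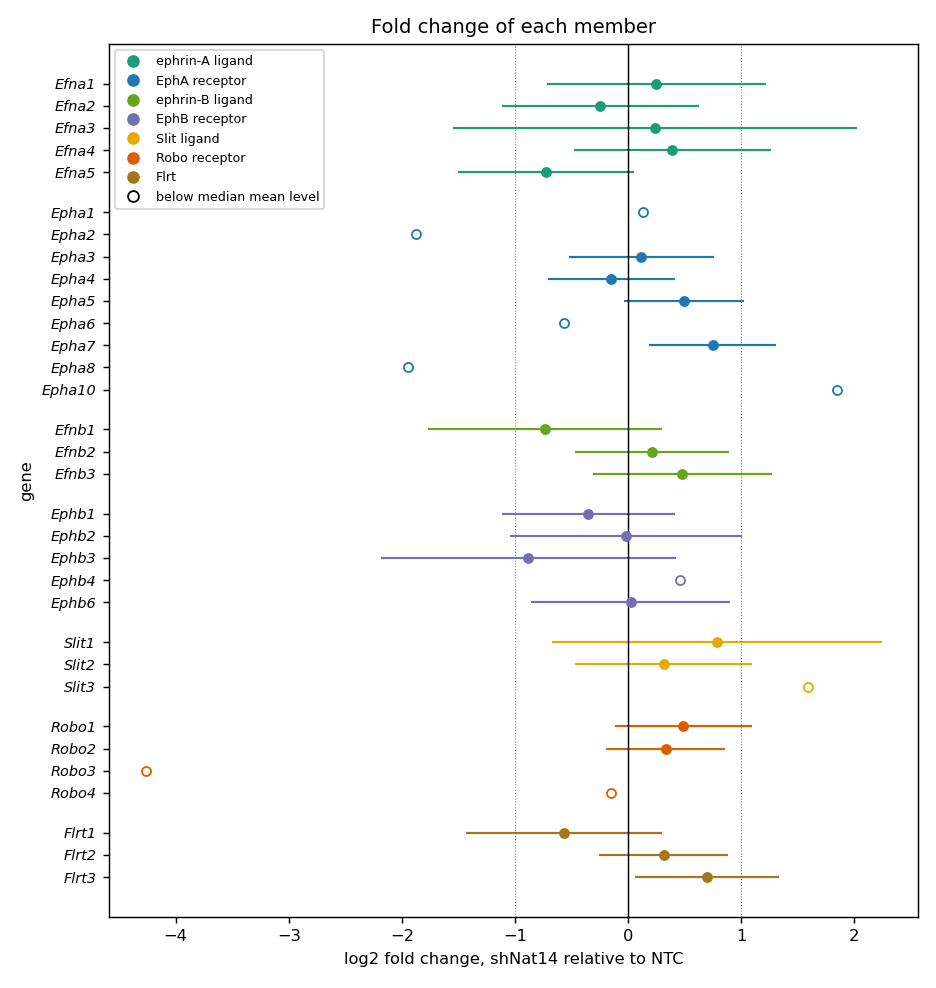
Log2 fold change of shNat14 relative to NTC for each of the 32 genes, ordered and coloured by family, with approximate 95% intervals as bars for the 23 genes at or above the median mean level and open points for the 9 below it. Dotted lines mark a 2-fold change in either direction. The intervals of Epha7 and Flrt3 lie to the right of 0 and those of the other 21 cross it.

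Among the ephrin-A ligands, fold changes ranged from -0.72 to 0.39 on the log2 scale per the authors' deposited table, with 3 positive, 2 negative and a median of 0.24. Efna5, a graded ligand known from thalamocortical and retinal maps, had the value farthest from 0, at -0.72 on the log2 scale with a mean of 26.9 CPM per the authors' deposited table (unadjusted p = 0.0688). Its approximate interval, from -1.50 to 0.06, just reaches 0 and would allow a level down to 0.353 times that of NTC. Efna2 stood at -0.24, and Efna1, Efna3 and Efna4 stood at 0.25, 0.24 and 0.39 per the authors' deposited table, with unadjusted p-values from 0.381 to 0.796. The last 3 are consecutive protein-coding genes in the annotation and had similar small positive values. With means of 6.69, 3.69 and 9.51 CPM they were measured less precisely than Efna5, and the approximate interval of Efna3, from -1.55 to 2.02, was the widest of that family. Efna3 and Efna4 also overlap exons of antisense genes. The sources do not say that reads were counted by strand, and the part of reads from shared bases in these values was not tested.

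The EphA receptors divided by level. Epha3, Epha4, Epha5 and Epha7 had means from 91.3 to 358 CPM per the authors' deposited table, while Epha1, Epha2, Epha6, Epha8 and Epha10 had means of 1.59 CPM or less. Epha7, a receptor that can also promote adhesion through a form without the kinase, stood at 0.75 on the log2 scale, or 1.68 times the NTC level, per the authors' deposited table (unadjusted p = 0.00919, adjusted p = 0.632). The approximate interval of this value ran from 0.18 to 1.31, and its p ranked 318th among the 21937 rows. Epha5, which binds several ephrin-A ligands, followed at 0.50 per the authors' deposited table (unadjusted p = 0.0663), with an approximate interval from -0.03 to 1.03. The 2 intervals overlap from 0.18 to 1.03, and that of Epha5 includes 0.

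Epha4 binds ligands of both classes and had a mean of 358 CPM and stood at -0.15 on the log2 scale per the authors' deposited table (unadjusted p = 0.602). Its approximate interval, from -0.71 to 0.41, leaves out a 2-fold change in either direction, as does that of Epha3 (0.12, from -0.53 to 0.76). The low EphA genes carried some of the larger fold changes but little information. Epha8, Epha2 and Epha6 stood at -1.95, -1.88 and -0.57, and Epha10 and Epha1 at 1.85 and 0.13, on the log2 scale per the authors' deposited table, with unadjusted p-values from 0.146 to 1. At means this low the size of a fold change varies with the prior count used, so these values are given as listed and are no bounds. Epha1, Epha6 and Epha10 share exonic bases with genes on the opposite strand, Epha1 with Zyx.

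**Figure D2:**
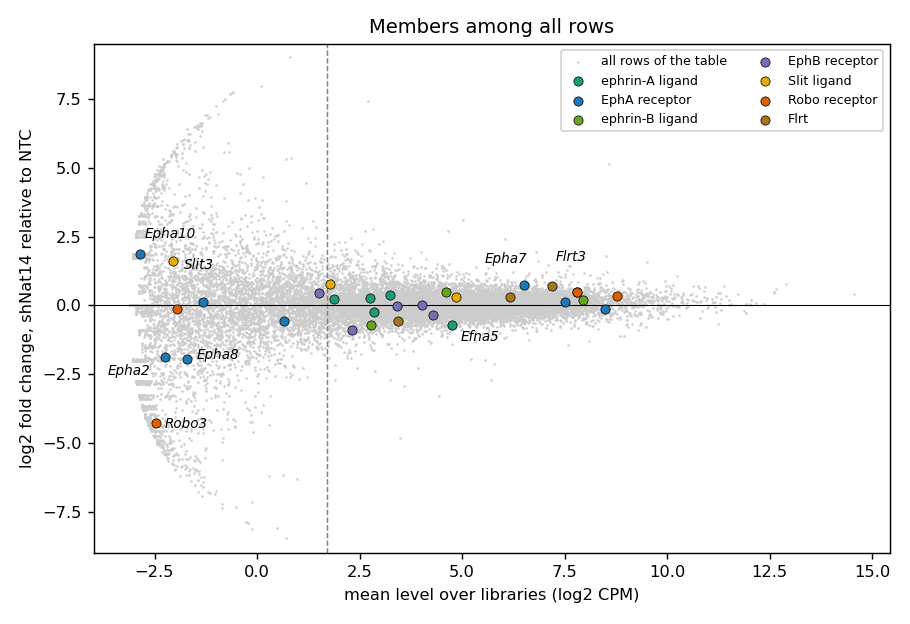
Log2 fold change (vertical axis) against mean level in log2 CPM (horizontal axis) for all 21937 rows in grey and the 32 members in the colours of their families, with the median mean level of 1.71 as a dashed line. Members with the largest fold changes, such as Robo3 at -4.27, lie at the left where fold changes of all rows are widest, and the members right of the line lie between -0.88 and 0.78.

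The 3 ephrin-B ligands did not share a direction. Efnb1, an X-linked gene, stood at -0.73 (unadjusted p = 0.164), Efnb2 at 0.21 (p = 0.548) and Efnb3 at 0.48 (p = 0.236) on the log2 scale per the authors' deposited table. Efnb2 had a mean of 245 CPM, and its approximate interval from -0.47 to 0.89, built on the normal z, leaves out a 2-fold change. With a t distribution with 4 degrees of freedom only 3 of the 6 members with that bound keep it, so it is not firm for Efnb2. Efnb1 was measured at 6.83 CPM, with an interval from -1.77 to 0.30 that allows a fall past 2-fold as well as no change. The intervals of all 3 overlap.

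EphB receptors were the only family of the 7 with a negative median fold change, -0.02 on the log2 scale, or -0.19 for its 4 members at or above the median level. Ephb3 stood at -0.88 at a mean of 4.95 CPM per the authors' deposited table (unadjusted p = 0.184), with an approximate interval from -2.19 to 0.42. Ephb1 stood at -0.35, Ephb2 at -0.02 and Ephb6, whose kinase domain is inactive, at 0.02 per the authors' deposited table, with unadjusted p-values of 0.369, 0.971 and 0.959. For Ephb6 the approximate interval from -0.86 to 0.90 stays inside a 2-fold change, whereas that of Ephb2, from -1.04 to 1.01, just passes it. This contrast depends on the normal z behind the intervals. With a t distribution with 4 degrees of freedom only 3 of the 6 members with such a bound keep it. Ephb4, which pairs with Efnb2 between veins and arteries, lay below the median level at 2.87 CPM and stood at 0.46 per the authors' deposited table (unadjusted p = 0.459). Its exons overlap those of Zan on the opposite strand, which stood at 5.23 at a mean log2 CPM of -1.96 per the authors' deposited table (unadjusted p = 0.037), and the part of shared reads in the value of Ephb4 was not tested. Exons of Ephb1 overlap a noncoding gene on the other strand.

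Slits were positive in all 3 cases, but none had a small p. Slit2 stood at 0.31 on the log2 scale at 28.6 CPM per the authors' deposited table (unadjusted p = 0.432). Slit1 stood at 0.78 at 3.42 CPM (p = 0.292) and Slit3 at 1.59 at 0.244 CPM (p = 0.429) per the authors' deposited table. The fold changes thus went up as the level went down, and the approximate interval of Slit1, from -0.67 to 2.24, was the widest among the 23 genes in upward reach. Slit1 thus had a larger fold change than Epha7, 1.72 times NTC, with an interval that includes 0.

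Robo1 and Robo2, the neighbouring genes for the main Slit receptors of cortical neurons, were both abundant and both positive. Robo1 stood at 0.49 on the log2 scale at 224 CPM (unadjusted p = 0.114) and Robo2 at 0.33 at 436 CPM (p = 0.22) per the authors' deposited table. Their approximate intervals, from -0.12 to 1.09 for Robo1 and from -0.20 to 0.86 for Robo2, overlap each other and 0, and that of Robo2 leaves out a 2-fold change. Robo3, a receptor of commissural neurons, had the largest fold change of all members, -4.27 on the log2 scale, at a mean of 0.180 CPM per the authors' deposited table (unadjusted p = 0.0948). Robo4, the endothelial receptor next to Robo3 in the genome, stood at -0.15 at 0.260 CPM per the authors' deposited table (unadjusted p = 1). No weight can be put on either size at these levels.

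Of the Flrt genes, Flrt3 stood at 0.70 on the log2 scale, or 1.62 times the NTC level, at 147 CPM per the authors' deposited table (unadjusted p = 0.0314, adjusted p = 0.914). Its approximate interval ran from 0.06 to 1.33. Flrt2 stood at 0.31 at 71.4 CPM (unadjusted p = 0.279) and Flrt1 at -0.57 at 10.9 CPM (p = 0.201) per the authors' deposited table. Flrt1 and Flrt3, the pair known to act together in cortical migration and folding, thus had opposite signs, with intervals that overlap between 0.06 and 0.30. Flrt3 lies inside an intron of Macrod2, which is on the opposite strand and had a similar value of 0.76 per the authors' deposited table (unadjusted p = 0.0588). Flrt1 lies in the same way inside Macrod1, which stood at -0.04 with few counts per the authors' deposited table (unadjusted p = 1). Whether intronic reads of the host genes entered the Flrt counts was not tested.

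**Figure D3:**
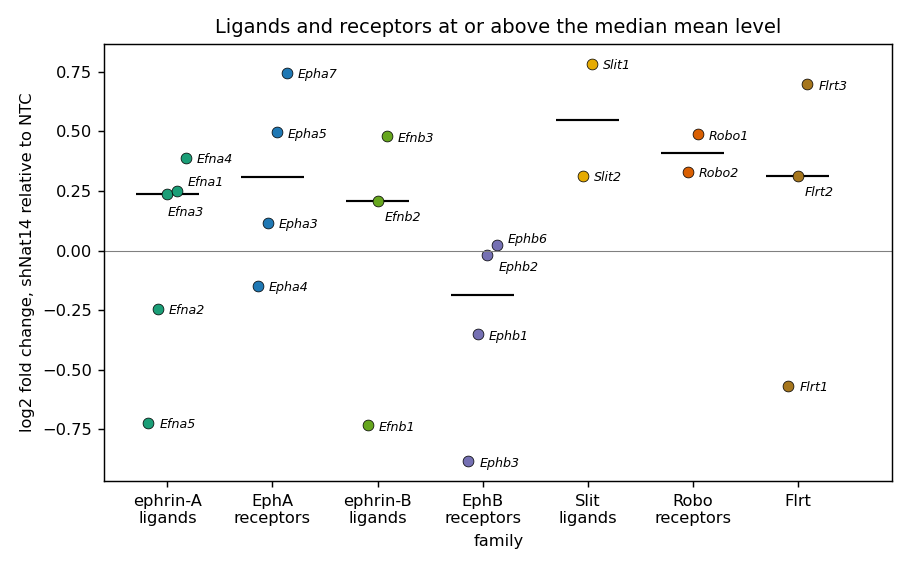
Log2 fold change, by family, of the 23 members whose mean level reached the median of all rows, with each gene as a point and the family median as a bar. Ligand and receptor families overlap in every system, and the EphB receptors are the family with a median below 0, at -0.19.

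Ligands were set against receptors over the 3 systems. Of the 11 ligands 8 had positive and 3 negative fold changes, with a median of 0.25 on the log2 scale, and of the 18 receptors 9 were positive and 9 negative, with a median of 0.00. The difference of these medians, ligands minus receptors, was 0.25. Much of the receptor side lies at low levels, since 8 of the 18 receptors but 1 of the 11 ligands fell below the median level. Among the 10 ligands and 10 receptors at or above it, 7 and 6 were positive, with medians of 0.24 and 0.07, and the difference was 0.17. The ligands spread from -0.73 to 0.78 and the receptors from -0.88 to 0.75, so the sides overlapped over nearly their whole range. The difference has no test, because genes are not replicates and there is 1 contrast.

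Within systems the same comparison gave differences of unlike size. For the A subfamily the median of ligands minus that of receptors was 0.12 over all members and -0.07 at or above the median level, so its sign rested on the low receptors. For the B subfamily the differences were 0.23 and 0.39. For Slit and Robo they were 0.69 and 0.14, the larger value resting on Slit3, Robo3 and Robo4 at under 1 CPM. Across the 8 ephrins and 14 Eph receptors 5 and 7 were positive, and 0 and 1 had an unadjusted p under 0.05.

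The precision of the table limits what can be said of members that were not called. Approximate standard errors of the 23 genes ran from 0.27 for Robo2 to 0.91 for Efna3 on the log2 scale. For 6 of them, Epha3, Epha4, Efnb2, Ephb6, Robo2 and Flrt2, the interval stayed inside a 2-fold change, and all 6 had means of at least 16.3 CPM. The count was 3 when the interval was built on a t distribution with 4 degrees of freedom. For the other 17 a 2-fold change in at least 1 direction was within the interval, so a p above the threshold does not show that their levels were alike.

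Levels were compared between genes per length of exon, with the union of exons in GENCODE M21, which may differ from the gene models the authors counted on. Epha4 had the highest mean level of the 23 genes, 5.47 as log2 of CPM per kb, followed by Efnb2 at 5.16, Flrt3 at 4.91, Robo2 at 4.68 and Epha3 at 4.38. Robo1 and Epha5 came next at 3.76 and 3.74, then Flrt2 and Epha7 at 3.21 each. Per kb the ligands Efnb3, Efna5 and Efna4 came next, at 2.94, 2.74 and 2.57. At the lower end stood Slit2 at 0.17, Ephb2 at -0.24, Ephb3 at -0.42 and Slit1 at -0.79. The place of Slit2 depends on its union of exons, 25433 bases against 4032 for Efna5. Before division by length Slit2, at 28.6 CPM, lay above Efna5, at 26.9 CPM, per the authors' deposited table. Ephb2 likewise has a long union, 12608 bases. Efnb2 was the single ligand among the 9 most abundant genes, and the most abundant EphB receptor, Ephb6 at 2.11, lay below every EphA receptor of the 23. No spread over libraries is known for these means, so neighbours in the order cannot be told apart.

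**Figure D4:**
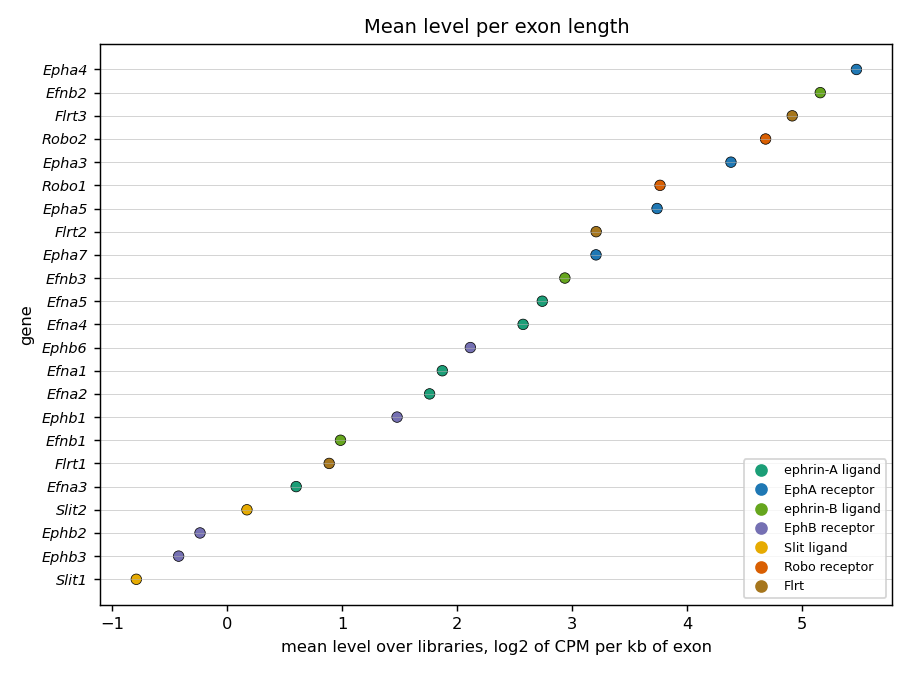
Mean level over all libraries as log2 of CPM per kb of exon for the 23 genes at or above the median mean level, in order, coloured by family. Epha4 is highest at 5.47 and Slit1 lowest at -0.79, with 4 EphA receptors, 2 Robos, 2 Flrts and Efnb2 in the upper 9 places.

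Genes that carry these signals were taken from lists of known partners. Of 64 different partner genes none was called at an adjusted p under 0.05 per the authors' deposited table, and 2 had an unadjusted p under 0.05, 1 positive and 1 negative. That is 3.12%, beside 5.04% of all rows. The list of Eph signalling partners, which holds Adam10, the protease that cleaves ephrin-A complexes, Nck adaptors, Vav and Ngef exchange factors and the GAP Rasa1, had 16 of 30 positive and a median of 0.01 on the log2 scale. Its single gene at unadjusted p under 0.05 was Itsn2, an intersectin, at 1.99 times the NTC level per the authors' deposited table (p = 0.0457, adjusted p = 0.985). Adam10 and Rasa1 stood at 0.57 each per the authors' deposited table (p = 0.0738 and p = 0.0524), and were named after their values were seen.

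The list of Slit-Robo partners had 14 of 25 positive and a median of 0.09. Its gene with the smallest p was Dcc, the netrin receptor that Robo1 can silence, at -0.78 per the authors' deposited table (p = 0.0365, adjusted p = 0.951). The srGAP proteins that act below Robo were near 0, with Srgap1, Srgap2 and Srgap3 at -0.12, 0.09 and 0.16 per the authors' deposited table. Of 14 listed Flrt partners 3 teneurins were not matched by symbol or older name, which does not show that they are absent. None of the other 11 had an unadjusted p under 0.05. Among these 11, 2 were positive and 9 negative, with a median of -0.15, beside 50.3% positive among rows above the lowest level. Those 2 were latrophilins, Lphn2 at 0.51 (p = 0.108, the smallest of the list) and Lphn3 at 0.45, while Lphn1 stood at -0.03 per the authors' deposited table. Unc5d, the repellent partner of Flrt2 in migrating neurons, was abundant at 511 CPM and stood at -0.72 per the authors' deposited table (p = 0.121). It was named after its value was seen, as were the other Lphn and srGAP genes.

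**Figure D5:**
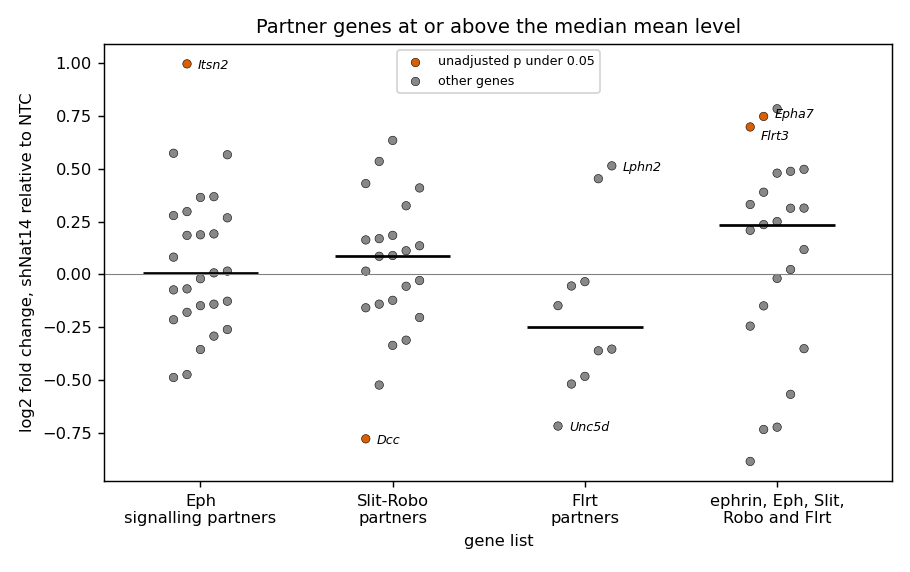
Log2 fold change of partner genes at or above the median mean level in 3 lists, with the 23 members for comparison, bars at the medians and genes at unadjusted p under 0.05 in orange. The medians range from -0.25 for Flrt partners to 0.24 for the members, and the spread of the lists overlaps throughout.

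Markers of cell types were examined because several members are also expressed outside neurons, and in bulk RNA fewer cells of a type and less RNA per cell cannot be told apart. The 10 markers of excitatory cortical neurons were all above the lowest level, with 5 positive and 5 negative fold changes, a range from -0.24 to 0.61 and a median of 0.06. Of 9 radial glia markers 4 were positive, with a median of -0.09. All 10 astrocyte markers were negative, from -6.33 to -0.05 with a median of -0.89. The 1 called, Agt, is the lowest of these and lay below the median level at 1.98 CPM per the authors' deposited table. The 8 astrocyte markers at or above that level had a median of -0.67. Among these 8 the smallest p-values were those of Apoe and Aldh1l1. Apoe stood at -1.10 at 496 CPM (unadjusted p = 0.00021) and Aldh1l1 at -1.15 at 67.0 CPM (p = 0.00426) per the authors' deposited table, and neither was called. Of 10 microglia markers 8 were negative with a median of -1.23, and 5 of the 10 lay below the median level. Of 10 interneuron markers 7 were negative, with a median of -0.44, as were 7 of 8 oligodendrocyte lineage markers (median -0.39) and 6 of 8 meningeal fibroblast markers (median -0.62). Of 8 markers of choroid plexus and ependyma 7 were positive, with a median of 1.14, or 1.42 for the 4 at or above the median level. The smallest p-values were those of Dynlrb2 at 1.48 (p = 0.0174) and Foxj1 at 1.36 (p = 0.0459) per the authors' deposited table. Ttr, the main protein of choroid plexus, stood at 1.80 at 366 CPM per the authors' deposited table (p = 0.065). Clic6 and Otx2 were nearer 0, at 0.21 and -0.22 per the authors' deposited table. Mural cell markers were positive for 6 of 8, with a median of 0.76, but 5 of the 8 lay below the median level. Intermediate progenitor markers were positive for 2 of 7 (median -0.29) and erythroid markers for 2 of 6, of which 2 others sat at the lowest level. Endothelial markers, which bear on Efnb2, Ephb4, Efna1 and Robo4, were positive for 8 of 10, with a median of 0.74, but 9 of the 10 lay below the median level and none was called per the authors' deposited table. Among them Tek and Emcn stood at 4.43 and 4.98 at means of 2.30 and 0.867 CPM per the authors' deposited table (p = 0.0397 and p = 0.0137). The part of these cell types in any member's value was not tested.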

How the data were processed

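RNA of GFP-positive cortical cells was sequenced from 3 shNat14 and 3 NTC libraries, grouped by sample title. The single table used is the authors' own comparison. Per the file headers, its log2 values are a fold change and a mean log2 CPM, and its p-values are an unadjusted p and an adjusted p, all deposited by the authors and used as they stand. The deposited adjusted p differed from a Benjamini-Hochberg adjustment over all 21937 rows by at most 4.05e-05. Per the submitters' processing notes, the tools were HTSeq 0.5.4p1, DESeq, SAMtools 0.1.19 and TopHat2 2.0.8, listed with no roles, and the build was hg19. The column names of the table are those of another count package than the notes name, so the test behind the p-values and its prior count are uncertain. That build is human while the samples and symbols are mouse, so the build is unresolved. Neither filters nor strand use in counting are given in the sources, and the depth of each library is unknown.

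Members were matched by symbol. The members and gene lists were chosen with earlier results of these data known. The genes named are Nat14, every member, and from each list the gene with the smallest p and up to 2 more at unadjusted p under 0.05, and for marker lists only some of these are printed. Adam10, Rasa1, the Srgap genes, Lphn1, Lphn3, Unc5d, Ttr, Clic6 and Otx2 fall outside this rule and were chosen after their values were seen. Overlapping and host genes (Zyx, Zan, Macrod1, Macrod2) are named for their position. A further list of partner genes is not reported here. Of 171 listed genes 165 were matched under their symbol, 1 under an older name, and 5 under neither. The approximate standard error is the size of the log2 fold change over the normal z of its two-sided p. Computations used Python 3.11.15, numpy 2.4.6, pandas 2.3.3 and scipy 1.17.1. Alternatives were other thresholds, adjustments, level filters, centrings, summaries and assignments of members.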

Additional observations from a re-analysis of the deposited data

How the results depend on the processing

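The count of 0 called members could have grown under 3 alternatives, a threshold of 0.10 and adjustment over 2 smaller sets of rows, and stayed at 0. The 4 stricter settings could not raise it. The smallest adjusted p of a member was 0.632, or 0.502 and 0.566 with the adjustment taken over rows above the lowest level or from the median level up. The 2 members at unadjusted p under 0.05 became 5 at a threshold of 0.10 and 1 at 0.01. The share of all rows at these thresholds was not computed, so the counts cannot say whether members were in excess. Epha5, Efna5 and Robo3 were the added genes, Epha5 positive and Efna5 and Robo3 negative. Robo3, at 0.180 CPM, had the largest p of the 5, which ranked 1888th among the 21937 rows. The difference of medians between ligands and receptors, 0.25, was positive in the 11 alternatives that could move it, from 0.12 for the A subfamily to 0.69 for Slit and Robo only, where 4 of the 7 genes have fewer than 4 CPM. It turned to -0.07 for the A subfamily at or above the median level. The other 3, 2 centrings and a filter that keeps all members, cannot move it. Of the 7 families 6 had a positive median but only 2, Slit and Flrt, a positive mean. The mean of the Robo family was -0.90, against a median of 0.09, and Robo3 decides it. Intervals inside a 2-fold change numbered 6, or 3 with a t distribution with 4 degrees of freedom. That distribution, and the alternatives without overlapping genes and with well-measured ephrins and Eph receptors, were chosen after seeing the data. No paired analysis was possible because only group comparisons were used, with no columns for single libraries, and leaving out a library was not run for the same reason. The depth per library is unknown, so the limit it sets on genes at low CPM cannot be given.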
